A study of Homo sapiens with 8 samples.

Results

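NF-Y binding regions that lie away from the ends of protein-coding genes were described in rhabdomyosarcoma cells. The members are entries of the authors' RH4 consensus list of NFYB and NFYC peaks (hg38). An entry was kept when it overlapped no window of 1000 bp either side of an end of a protein-coding gene in the RefSeq table for GRCh38.p14. Of 3073 consensus entries, 693 (22.6%, exact 95% interval 21.1 to 24.1) met this rule, and the other 2380 were at a gene end. Among the 693, 407 lay inside a protein-coding gene (58.7%, 55.0 to 62.4) and 285 lay between such genes (41.1%, 37.4 to 44.9). 1 entry lay on an alternate contig (chr22_KI270879v1_alt) for which the table gives no gene.

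NF-Y binds the CCAAT box as a complex of its NFYA, NFYB and NFYC subunits. NFYB and NFYC pair through histone-fold domains, and NFYA reads the pentamer. The CCAAT box is best known from promoters, a short way upstream of the transcription start, where NF-Y serves housekeeping, cell cycle and lipid synthesis genes, and NF-Y has also been found at enhancers and at repeats far from promoters.

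The study profiled NF-Y subunits by CUT&RUN, in which an antibody tethers a nuclease to chromatin and the released fragments are sequenced. RH4 and RH30 are established rhabdomyosarcoma lines, labelled PAX3-FOXO1+ in every library. RH4 cells were untreated and gave 1 NFYB and 1 NFYC library. RH30 cells carried an inducible cytosine base editor, received 1 guide RNA each, were selected with blasticidin and were taken 8 days after rapamycin started editing, which holds for controls and edited cells alike. Of the 4 RH30 NFYB libraries, sgCtrl1 and sgCtrl2 carry control guides, and sgCCAAT2a and sgCCAAT2b carry guides to the CCAAT motif in the PAX3 promoter. The RH30 libraries are so named by title, while their source name and cell line fields read RH4. Each guide has 1 library, so differences between guides have no replicate check, and intervals below cover the counting of entries only. The RH30 libraries held 13.9, 10.5, 21.2 and 28.2 M tags by their file headers (sgCtrl1, sgCtrl2, sgCCAAT2a, sgCCAAT2b) and gave 4025, 6687, 2451 and 2558 peaks, so depth and list length ran in opposite directions between controls and edited libraries. In the same order, 2.4%, 3.1%, 1.22% and 1.46% of tags lay in peaks, and the peak size was 189, 196, 152 and 163 bp. Both were thus lower in the edited libraries, and their part in the presence counts below was not tested. The depth of the RH4 libraries is unknown. The lists hold peak positions without heights and no expression values, so the labelled cell type was not checked against its markers.

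Many of the members lay on an annotated transcription start inside or between genes, and the sequences there show what these regions look like. The following are the 200 bases before the start, 5′ to 3′ on the strand of the gene (RefSeq, GRCh38.p14), with CCAAT or its reverse complement ATTGG in capitals. They are the first 5 coding and first 4 long non-coding RNA starts, in the file order of the RH30 sgCtrl2 list, at entries with a peak in all 4 RH30 lists and a CCAAT in the start window, so the presence of the motif in them is part of the choice. 5 are internal starts of protein-coding genes: HNRNPUL1 (an RNA-binding protein, chr19:41264172-41264371, plus strand), KAT6B (a histone acetyltransferase, chr10:74826400-74826599, plus strand), HNRNPL (a splicing regulator, chr19:38849987-38850186, minus strand), TEDC1 (a centriolar protein, chr14:105491046-105491245, plus strand) and CDK5RAP3 (chr17:47970913-47971112, plus strand). The others are starts of long non-coding RNAs, LOC105373042 inside TEF (chr22:41381912-41382111, minus strand) and, between protein-coding genes, OLMALINC (chr10:100373376-100373575, plus strand), LINC01003 (chr7:152463924-152464123, plus strand) and LIPE-AS1 (chr19:42396948-42397147, plus strand). The entry at LOC105373042 also overlaps a start window of TEF itself.
HNRNPUL1: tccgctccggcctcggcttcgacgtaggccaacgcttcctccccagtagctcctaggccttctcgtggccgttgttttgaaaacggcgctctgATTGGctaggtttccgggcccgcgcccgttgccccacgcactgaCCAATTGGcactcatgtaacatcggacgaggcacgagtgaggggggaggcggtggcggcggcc
KAT6B: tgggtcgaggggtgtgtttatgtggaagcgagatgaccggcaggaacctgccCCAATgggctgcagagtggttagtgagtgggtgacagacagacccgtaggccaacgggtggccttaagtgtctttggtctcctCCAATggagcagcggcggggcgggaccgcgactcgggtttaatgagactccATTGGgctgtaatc
HNRNPL: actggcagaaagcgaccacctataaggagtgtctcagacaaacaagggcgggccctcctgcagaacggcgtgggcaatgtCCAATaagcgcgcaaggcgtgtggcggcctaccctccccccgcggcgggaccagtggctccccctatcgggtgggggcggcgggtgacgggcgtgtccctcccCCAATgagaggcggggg
TEDC1: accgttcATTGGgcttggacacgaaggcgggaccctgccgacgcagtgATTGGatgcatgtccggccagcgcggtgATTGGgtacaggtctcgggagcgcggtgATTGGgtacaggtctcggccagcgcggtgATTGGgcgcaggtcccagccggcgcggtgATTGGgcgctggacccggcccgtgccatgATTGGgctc
CDK5RAP3: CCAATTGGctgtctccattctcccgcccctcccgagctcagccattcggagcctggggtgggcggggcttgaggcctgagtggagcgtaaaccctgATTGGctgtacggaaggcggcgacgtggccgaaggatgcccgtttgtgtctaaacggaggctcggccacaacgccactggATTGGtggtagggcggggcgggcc
LOC105373042: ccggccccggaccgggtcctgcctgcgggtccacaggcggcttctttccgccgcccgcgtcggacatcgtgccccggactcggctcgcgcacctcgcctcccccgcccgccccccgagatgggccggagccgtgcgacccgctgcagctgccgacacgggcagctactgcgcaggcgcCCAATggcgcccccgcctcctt
OLMALINC: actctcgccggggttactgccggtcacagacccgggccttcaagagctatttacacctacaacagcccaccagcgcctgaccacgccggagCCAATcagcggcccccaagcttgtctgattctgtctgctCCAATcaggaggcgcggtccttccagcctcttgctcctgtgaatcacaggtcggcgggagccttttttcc
LINC01003: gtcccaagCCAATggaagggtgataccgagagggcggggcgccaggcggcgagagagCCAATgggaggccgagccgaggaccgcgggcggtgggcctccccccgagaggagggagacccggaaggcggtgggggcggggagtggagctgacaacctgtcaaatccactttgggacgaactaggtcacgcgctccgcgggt
LIPE-AS1: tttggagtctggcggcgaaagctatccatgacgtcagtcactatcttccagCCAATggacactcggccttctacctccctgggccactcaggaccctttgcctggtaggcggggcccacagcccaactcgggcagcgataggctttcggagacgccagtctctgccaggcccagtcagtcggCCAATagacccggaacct

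TEDC1 had 7 matches in these 200 bases, all in the ATTGG orientation, with centres 41, 28, 28, 29, 29 and 29 bp apart from the most upstream to the last. CDK5RAP3 had 4 matches, HNRNPUL1 and KAT6B each had 3, HNRNPL, OLMALINC, LINC01003 and LIPE-AS1 each had 2, and LOC105373042 had 1. The overlapping pair CCAATTGG in HNRNPUL1 and CDK5RAP3 counts as 2 matches, 1 on each strand. In OLMALINC both matches were in the CCAAT orientation, 107 and 68 bases before the start. A match describes the letters in the window and is not a measured binding site.

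Members reached from just past the 1000 bp limit to more than 1 Mb from the nearest end of a protein-coding gene. The median distance was 9165.5 bp (95% interval 8134 to 11026), with quartiles of 3789 and 27174 bp and a range of 1001 to 1325630 bp. Intragenic entries lay closer to an end (median 7138 bp, 6158 to 8683) than intergenic ones (15157 bp, 11033 to 18989), and these intervals do not overlap. Of the members, 146 lay at 1 to 3 kb, 210 at 3 to 10 kb, 171 at 10 to 30 kb, 119 at 30 to 100 kb and 46 beyond 100 kb. Close to the limit, 25 entries lay 900 to 1000 bp from an end, 8 of them in all 4 RH30 lists, and 18 lay 1000 to 1100 bp away, 6 of them in all 4. These counts are too small to show whether the limit marks a step.

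**Figure D1:**
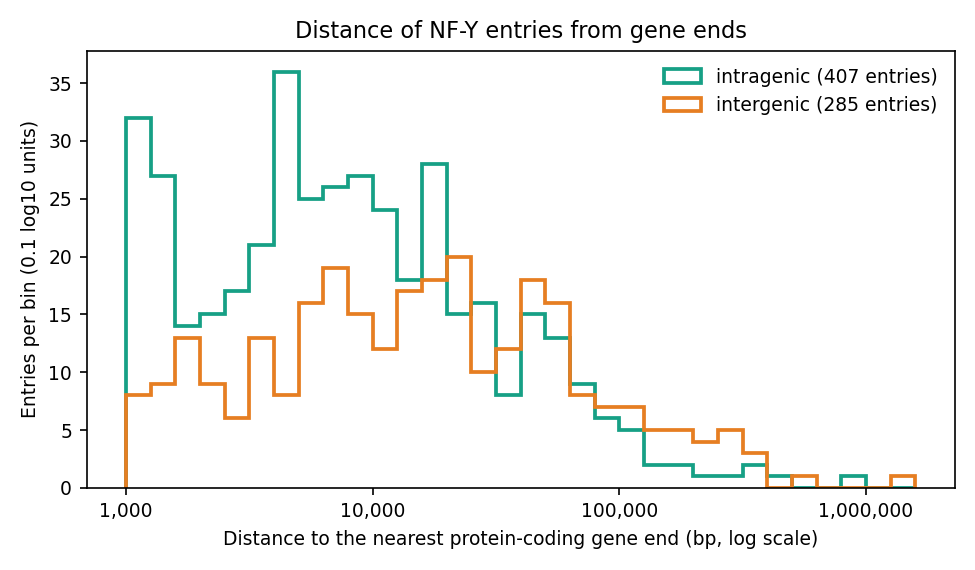
Number of intragenic (407) and intergenic (285) entries by distance to the nearest protein-coding gene end, in bins of 0.1 log10 units on a log axis in bp. The intragenic entries peak nearer to gene ends (median 7138 bp) than the intergenic ones (15157 bp), whose tail passes 1 Mb.

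Inside genes, the members lay towards the 5′ side. Strand was known for genes present in the RefSeq promoter table. The nearest end was taken over all protein-coding genes, so for some intragenic entries it belonged to a gene other than the host. Among intragenic entries whose nearest end could be assigned, it was the 5′ end of its gene for 244 of 335 (72.8%, 67.7 to 77.5). For intergenic entries it was 110 of 219 (50.2%, 43.4 to 57.0). In the 326 intragenic entries with a single host gene of known strand, the entry lay at a median 29.5% of the gene's length (26.5 to 33.1), 9962 bp from the 5′ end. Of these 326, 245 (75.2%, 70.1 to 79.8) were in the first 50% of the gene and 69 (21.2%, 16.9 to 26.0) in the first 10%. The lean to the 5′ side was present, though smaller, in the 117 such entries away from any RefSeq start window and from any non-coding gene end, of which 78 (66.7%, 57.4 to 75.1) were in the first 50%.

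A RefSeq start window, the 300 bases from 250 before to 50 after an annotated start, overlapped 262 of the 693 members (37.8%), against 67.9% of all consensus entries. That background is not read against the members, because the rule removes starts at gene ends. The windows were of protein-coding genes alone at 154 entries, of long non-coding RNAs alone at 71, and of both at 37. Within genes the share was 201 of 407 (49.4%), and 191 of those 201 were at a start of the host gene itself. Such starts are called internal here because they lie inside the outermost annotated ends of the gene. No start was ranked as main or alternative, so an internal start may be the main one of its gene. Between genes it was 61 of 285 (21.4%). The promoter table covers 15843 of 20037 protein-coding genes, so these counts are minimums.

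An end of a gene that is not protein-coding lay within 1000 bp of 221 members (31.9%), against 25.3% of all consensus entries. The genes were long non-coding RNAs at 181 entries, transcribed pseudogenes at 41, microRNAs at 10, other pseudogenes at 8, small nucleolar RNAs at 4, tRNAs at 3 and a small nuclear RNA at 1, with some entries near several. Of the 285 intergenic entries, 108 (37.9%, 32.2 to 43.8) lay inside a non-coding gene. Sorted without overlap, 262 members were at a start window, 101 (14.6%) were at a non-coding gene end with no start window, and 330 (47.6%) were at neither.

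The CCAAT box was present at nearly all of the starts that members covered. At least 1 CCAAT on either strand was found in a start window of 242 of the 262 entries (92.4%), and inside the bases shared by entry and window for 235. By window, 312 of 349 had it (89.4%, 85.7 to 92.4), against 34.6% of all 35116 RefSeq windows of the same length. Windows of protein-coding genes had it in 203 of 222 cases (91.4%, 87.0 to 94.8) and those of long non-coding RNAs in 109 of 127 (85.8%, 78.5 to 91.4). Windows at entries on gene ends had it in 87.2% of 2509 cases. By entry, 1641 of 1824 gene-end entries at a start window had it (90.0%), and the difference from the members, 2.40 points, has an interval (-1.67 to 5.42) that includes 0.

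More than 1 CCAAT per window was common. It was seen in 195 of the 349 windows (55.9%), against 10.8% of all windows and 53.1% of the 2509 windows at gene-end entries. The median match lay 94 bases before the start, as it did over all RefSeq windows. In the bin from 100 to 50 bases before the start there were 57.7 matches per 100 coding windows and 51.2 per 100 long non-coding RNA windows, and the same bin held 14.2 over all windows. After the start there were 5.86 and 12.6 per 100 windows. Neighbouring matches were a median 44 bp apart, and 31.4% of 290 neighbouring pairs were 20 to 40 bp apart, close to the 30.5% over all windows. At gene-end entries it was 35.6% of 2230 pairs. The windows were also richer in G and C (median 65.7% against 58.7%), and the GC box GGGCGG, read on both strands, was in 79.4% of them, against 45.0% of all windows. Windows at gene-end entries had a median of 65.3% and the GC box in 82.2%, so neither trait is particular to the members.

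**Figure D2:**
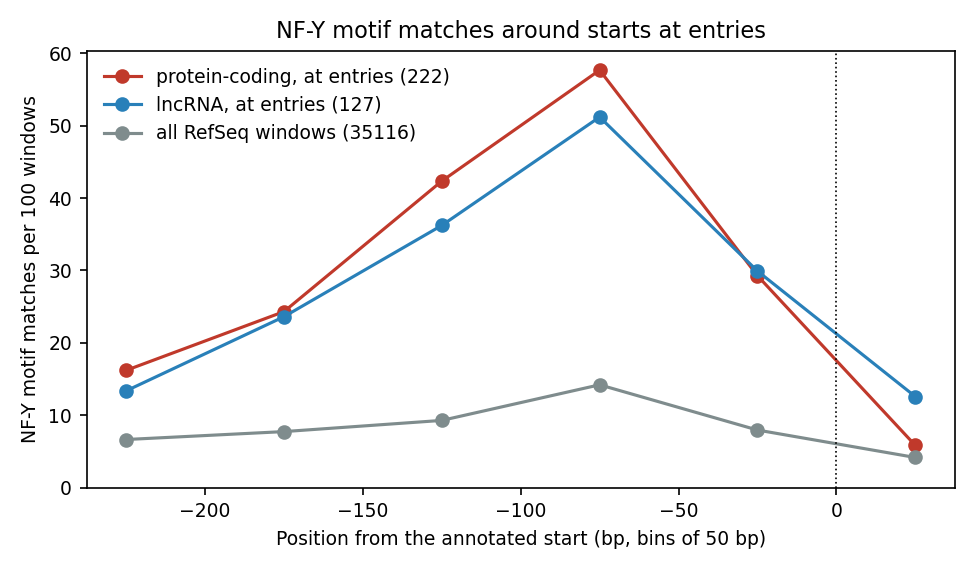
CCAAT matches on either strand per 100 windows in bins of 50 bp from the annotated start (dotted line), for 222 protein-coding and 127 long non-coding RNA windows at entries away from gene ends and for all 35116 RefSeq windows. Both sets at entries rise to over 50 matches per 100 windows in the bin from 100 to 50 bp before the start, where all windows hold 14.2.

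Most members found in RH4 cells also had a peak in RH30 control cells. An RH30 peak was counted when it overlapped the entry by at least 1 bp. A peak was present in sgCtrl1 at 474 of 693 members (68.4%, 64.8 to 71.8), against 72.5% of all consensus entries, and in sgCtrl2 at 469 (67.7%, 64.1 to 71.1), against 73.9%. The edited libraries held fewer, with 379 in sgCCAAT2a (54.7%, 50.9 to 58.4), against 56.6%, and 399 in sgCCAAT2b (57.6%, 53.8 to 61.3), against 58.7%. All 4 lists held 302 members (43.6%, 39.8 to 47.4), against 46.8% of all entries, and none held 129 (18.6%), against 16.6%. Where a peak was present its centre lay close to that of the entry, at a median of 29.5, 32, 22 and 21.5 bp in sgCtrl1, sgCtrl2, sgCCAAT2a and sgCCAAT2b.

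Set against the entries at gene ends, the members were less often present in the control lists. The difference was -5.26 points (95% interval -9.21 to -1.45) in sgCtrl1 and -8.00 points (-11.9 to -4.19) in sgCtrl2. For the edited lists it was -2.50 points (-6.71 to 1.68) in sgCCAAT2a and -1.42 points (-5.61 to 2.72) in sgCCAAT2b, and both intervals include 0. With an overlap of at least 50% of both intervals, the control differences were -3.38 points (-7.59 to 0.835) and -3.73 points (-7.94 to 0.489), while the sgCCAAT2a and sgCCAAT2b differences had the other sign, at 3.17 (-0.818 to 7.27) and 4.55 points (0.408 to 8.74). With the first 50% of each RH30 file all 4 differences were below 0, at -8.38 (-12.2 to -4.38) for sgCCAAT2a and -8.21 (-12.1 to -4.16) for sgCCAAT2b, so no direction is given for the edited lists. Without the members at a start window the differences were -7.99, -11.2, -5.44 and -3.77 points, and the sgCCAAT2a interval (-10.6 to -0.355) then no longer included 0, which was also so with windows of 500 bp (-4.93 points, -8.89 to -0.979).

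**Figure D3:**
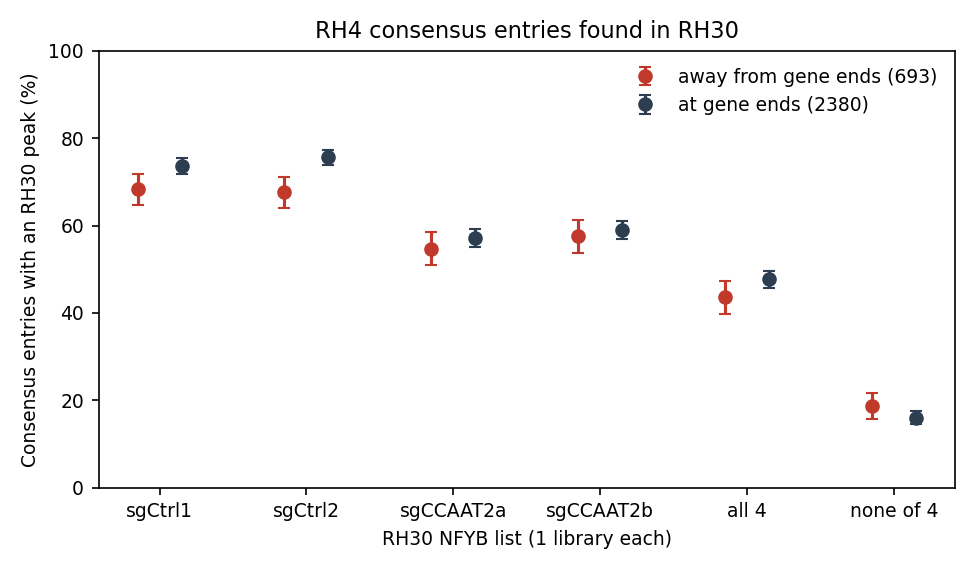
Percent of consensus entries with a peak in each RH30 NFYB list, in all 4 and in none, for 693 entries away from gene ends and 2380 at gene ends. Points are shares and bars exact 95% intervals; each list is 1 library, and members sit lower than gene-end entries in both control lists (68.4% against 73.7%, and 67.7% against 75.7%).

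Entry width moved with presence. Members were narrower than entries at gene ends, with a median of 192 bp (180 to 202) against 225 bp (219 to 232). In 4 width classes of about equal size over the whole consensus, limited at 142, 217 and 298 bp, the share of members in all 4 lists was 16.8%, 41.9%, 58.7% and 73.3% from narrow to wide, beside 13.0%, 37.1%, 59.9% and 75.7% at gene ends. The differences in single lists were not the same at every width. Among the narrowest entries, members were more often present in the edited lists than gene-end entries, by 12.0 points in sgCCAAT2a (5.18 to 19.3) and 13.3 points in sgCCAAT2b (6.26 to 20.7), while the control differences there were 4.20 and 0.678 points with intervals that include 0. Among the widest, they were less often present in the controls, with differences of -7.84 points in sgCtrl1 (-15.8 to -1.73) and -9.01 points in sgCtrl2 (-17.3 to -2.29), and the edited differences there were -1.38 and -0.235 points with intervals that include 0. Of the 8 differences in the middle classes, the interval of 1 excluded 0, that of sgCtrl2 in the wider class (-7.45 points, -15.1 to -0.824). The part of width in the pooled differences was not tested further.

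By distance, presence was lowest far from gene ends. The bin beyond 100 kb is not only intergenic, since it also holds entries inside long genes such as DLG2 and SDK1. The share in all 4 lists was 43.8% at 1 to 3 kb, 48.6% at 3 to 10 kb, 45.0% at 10 to 30 kb, 37.8% at 30 to 100 kb and 30.4% beyond 100 kb. The last of these rests on 14 of 46 entries (17.7 to 45.8). It lay 18.1 points below the 3 to 10 kb bin (difference -18.1, -31.3 to -2.29), while its differences from the other three bins, of -13.4, -14.6 and -7.38 points, have intervals that include 0. Median widths in the same bins were 209.5, 208, 196, 153 and 158.5 bp, so far entries were also narrow ones. Intragenic and intergenic members did not differ beyond counting error in the share found in all 4 lists (41.3% and 47.0%, difference -5.74 points, -13.2 to 1.75).

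**Figure D4:**
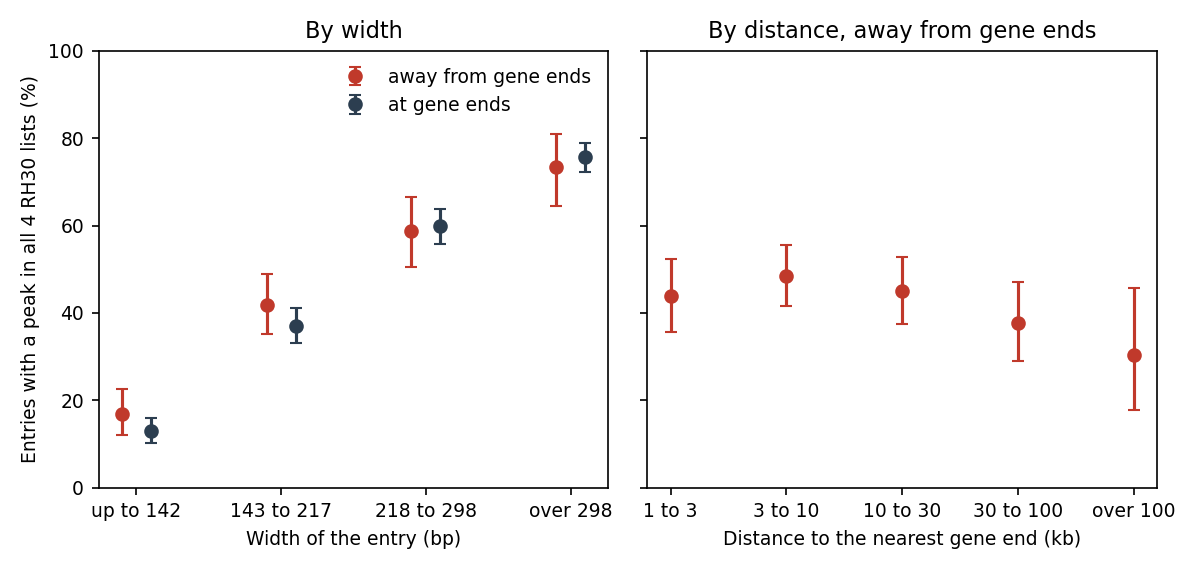
Percent of entries with a peak in all 4 RH30 lists by entry width (left, members and gene-end entries) and by distance to the nearest gene end (right, members only), with exact 95% intervals. The share of members climbs from 16.8% to 73.3% with width and is lowest, at 30.4%, beyond 100 kb.

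Members at start windows were compared with those at neither a start window nor a non-coding end. Their median widths were 228 and 165 bp. Presence in sgCtrl2 was 9.87 points higher at start windows (2.28 to 17.2). In sgCtrl1, sgCCAAT2a and sgCCAAT2b the differences were 7.14 (-0.369 to 14.4), 5.60 (-2.43 to 13.5) and 4.78 points (-3.20 to 12.6), and these intervals include 0. Absence from all 4 lists was 8.76 points lower (difference -8.76, -14.7 to -2.53). The share in all 4 lists was 47.7% and 42.1%, a difference of 5.59 points whose interval (-2.45 to 13.6) includes 0. Of the 20 start-window members without a CCAAT in any of their windows, 5 were in all 4 lists (25%, 8.66 to 49.1), beside 120 of the 242 with one (49.6%, 43.1 to 56.1). These 20 were also narrower, with a median of 127 bp against 232.5 bp.

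The edited libraries were compared with controls entry by entry. Of the 403 members with a peak in both control lists, 302 (74.9%) had one in both edited lists, against 71.7% of all such entries, and 64 (15.9%, 12.5 to 19.8) in neither, against 16.8% of all consensus entries with both control peaks. At gene ends it was 272 of 1601 (17.0%), a difference of -1.11 points (-4.88 to 3.16) that includes 0. The 15.9% depends on the settings: it was 6.31% in the widest 50% of entries, 22.8% with an overlap of 50% and 35.1% with the first 50% of each RH30 file. The members that were absent from both edited lists and came first in the sgCtrl2 file order included entries at YJU2B, DAG1 (dystroglycan), GATA2 (a blood and vessel transcription factor), GNE (sialic acid synthesis) and CLIP2 inside genes, and nearest to SERP2, LOC112268076, DEFB108B and ECM1 between genes. The first of them, in YJU2B, stood at place 421 in the sgCtrl1 file and 488 in the sgCtrl2 file, and the last, in CLIP2, at 1127 and 1262. The authors' deposited tables, described below, do not list the YJU2B and CLIP2 peaks as higher in sgCtrl2 than in either edited library. They list the peak near LOC112268076 over sgCCAAT2a only, and the other entries named here over both edited libraries. No header calls the order of a file a rank, and the files differ in length, so a place is read within its own file.

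Taken as a whole, members came later in every RH30 list than entries at gene ends. As a percent of list length, the median place of members was 35.1% in sgCtrl1, 22.0% in sgCtrl2, 47.4% in sgCCAAT2a and 46.2% in sgCCAAT2b. For gene-end entries these were 27.3%, 17.0%, 36.6% and 36.3%, and in none of the 4 lists did the 95% intervals of the 2 medians overlap. This did not hold for each kind of member. Members at a start window had medians of 27.4% and 16.4% in sgCtrl1 and sgCtrl2, and 40.3% and 42.1% in sgCCAAT2a and sgCCAAT2b. Members of 218 to 298 bp had 25.6%, 16.6%, 39.0% and 39.5%, beside 26.4%, 16.1%, 40.9% and 38.5% for gene-end entries of that width. Members over 298 bp had 12.6%, 8.28%, 24.9% and 21.8%, beside 10.0%, 6.36%, 17.0% and 16.3%. Only in sgCCAAT2a did these intervals not overlap (19.1 to 30.6 and 15.4 to 18.8). Those of 143 to 217 bp had 42.9%, 25.4%, 56.7% and 59.1%, beside 37.4%, 22.9%, 55.9% and 55.5%. Only in sgCtrl1 did their intervals not overlap (40.2 to 46.0 and 34.8 to 39.8). Members up to 142 bp had 51.9%, 35.2%, 73.3% and 73.1%, beside 50.1%, 30.9%, 73.3% and 70.3%. For these and for members of 218 to 298 bp, the intervals overlapped in all 4 lists.

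A peak of sgCtrl2 entered the authors' deposited tables when it held 2.5-fold or more of the tags of another library, at a Poisson p of 0.001. Of the 469 members with an sgCtrl2 peak, the authors' deposited table over sgCtrl1 listed 9 (1.92%), against 1.32% of all consensus entries with such a peak. Over sgCCAAT2a the authors' deposited table listed 169 (36.0%), against 43.7%, and over sgCCAAT2b it was 143 (30.5%), against 34.7%. These tables share the sgCtrl2 library, so they are not independent of each other, and they come from 1 library a guide. At gene ends the authors' deposited tables listed 1.17%, 45.6% and 35.8%, so members were listed less often over sgCCAAT2a (-9.61 points, -14.4 to -4.61) and over sgCCAAT2b (-5.32 points, -9.90 to -0.491). The gap was widest among peaks late in the sgCtrl2 file, although this was not tested against the earlier ones. Past place 2000 the authors' deposited tables listed 24.7% and 23.4% of 158 members beside 41.4% and 34.3% of 350 gene-end entries. In the first 500 places the authors' deposited tables listed 34.8% and 25.8% of 66 members beside 40% and 24.0% of 405.

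**Figure D5:**
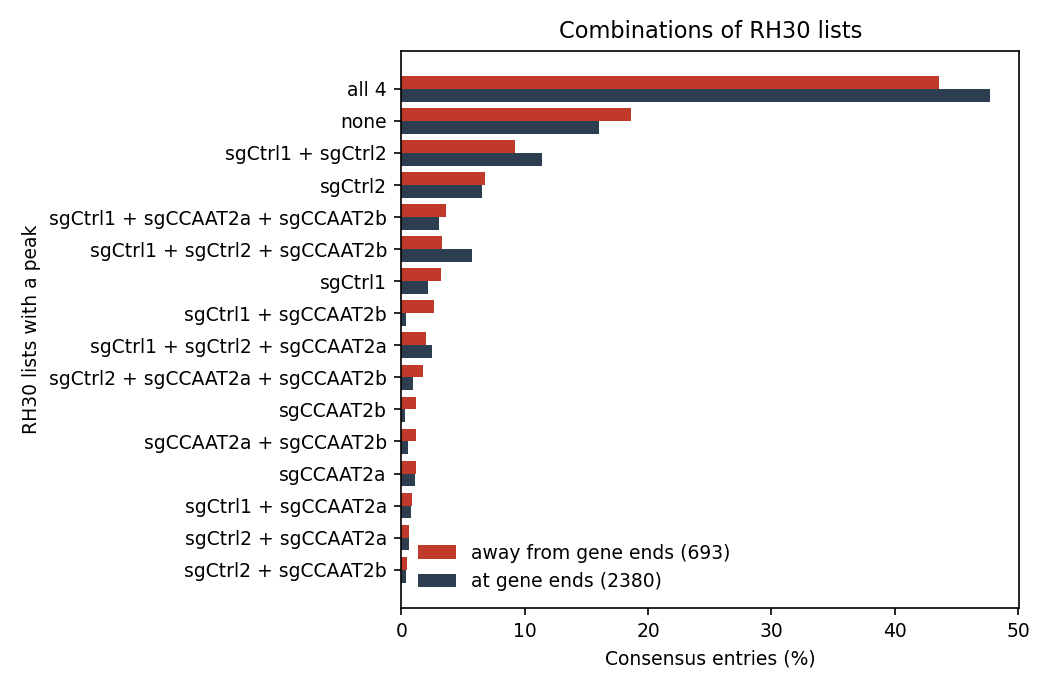
Percent of entries in each of the 16 combinations of RH30 lists, for 693 members and 2380 gene-end entries. All 4 lists (43.6% and 47.7%) and none (129 and 381 entries) lead in both sets; sgCtrl1 with sgCCAAT2b only holds 18 members (2.60%) and 9 gene-end entries (0.378%).

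Of the 10 widest members, 4 lay at internal starts of their host gene. HNRNPL held the widest entry (705 bp, chr19:38849965-38850669), which lies 1678 bp from the gene's 5′ end and stood at places 13, 29, 24 and 28 of the sgCtrl1, sgCtrl2, sgCCAAT2a and sgCCAAT2b files. HNRNPUL1 followed with 682 bp (chr19:41263688-41264369) at places 38, 4, 20 and 21. KAT6B had 546 bp (chr10:74826127-74826672), 1191 bp from the 5′ end of a gene of 207689 bp, at places 19, 10, 60 and 83. These 3 stood early in all 4 files. TEDC1, the gene with 7 CCAAT matches, was at places 122, 83, 193 and 224 with 471 bp (chr14:105490871-105491341). SLC27A1, a fatty acid transporter, had a 542 bp entry at an internal start, at places 444, 482, 781 and 716. FOSB, an immediate-early gene of the AP-1 family, stood apart: its 626 bp entry (chr19:45469268-45469893), at no start window, had a peak only in sgCCAAT2a, at place 256.

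Other wide members had no annotated start. FLYWCH1 was the nearest gene, 5812 bp away, to a 676 bp intergenic entry (chr16:2905444-2906119) at places 79, 124, 133 and 249. Near NFE2L3, a transcription factor gene of the CNC family, 3 intergenic entries lay 289418 to 296897 bp from the gene's 5′ end, all in all 4 lists. The widest of them (607 bp, chr7:25862174-25862780) was at places 146, 121, 185 and 167, while the other two (183 and 217 bp) stood between places 1487 and 3435. In the authors' deposited tables the 607 bp entry is higher in sgCtrl2 than in both edited libraries. A 444 bp entry 2347 bp from VAMP2, a vesicle fusion protein, was at places 114, 100, 170 and 157 (chr17:8156357-8156800). EPOR, the erythropoietin receptor, held a 588 bp entry at places 2390, 2572, 1999 and 1814, far later in each file than the other wide entries just named.

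Far members were found both with and without RH30 peaks. The farthest of all, 1325630 bp from CDH11, was 30 bp wide and in no RH30 list. Of the 10 farthest intergenic entries 5 were in all 4 lists, among them a 279 bp entry 556347 bp from MTRR (chr5:8457460-8457738) at the starts of the long non-coding RNAs LINC02226 and MIR4458HG, at places 1157, 1364, 1388 and 1079. Within genes the entries farthest from an end were in DLG2 (965530 bp from an end, in 3 lists), SDK1, NAV2, RAD51B and NKAIN3. NAV2, at an internal start with a CCAAT match, had a peak only in the sgCtrl2 list (place 375), and SDK1, RAD51B and NKAIN3 were in none. The authors' deposited tables list the NAV2 peak as higher in sgCtrl2 than in both edited libraries, but not than in sgCtrl1. DLG2, a synaptic scaffold gene of 2173362 bp, had an entry of 76 bp. None of these 5 was in all 4 lists.

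Starts of long non-coding RNAs formed a further set. OLMALINC, a long non-coding RNA whose nearest protein-coding gene is the desaturase SCD, 8531 bp away, was covered by a 264 bp entry (chr10:100373357-100373620) at places 262, 152, 246 and 326. LINC01003 near the histone methyltransferase gene KMT2C was at places 341, 219, 594 and 476, and LIPE-AS1 at 347, 263, 343 and 382. An entry inside the potassium channel gene KCNQ1 lay at an end of KCNQ1OT1, the long non-coding RNA of an imprinted domain (chr11:2700005-2700278), 148827 bp from the nearer end of KCNQ1, at places 228, 184, 289 and 246. CHASERR, a long non-coding RNA upstream of the chromatin remodeller gene CHD2, had an entry at its start (chr15:92882333-92882654) at places 338, 850, 302 and 305. CHD2 was the nearest gene to 3 members, the CHASERR entry, one 68232 bp upstream (in all 4 lists) and one 3921 bp inside the gene (in 3 lists, absent from sgCtrl1). DANCR and OIP5-AS1 starts were also covered, both in all 4 lists.

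Neighbouring genes were counted by lists of pathways. A gene counted when it hosted a member, was the nearest to one or had a start window on one, which held for 647 of 20037 protein-coding genes (3.23%). The lists were chosen with earlier results of these data known, so their counts are descriptions. In cholesterol and fatty acid synthesis 5 of 20 genes counted, in endoplasmic reticulum folding 3 of 20 and in the cell cycle 3 of 20. NF-Y and its partners had 1 of 8, muscle regulators and structure 1 of 25 and reported PAX3-FOXO1 targets 1 of 20. No gene counted in a list of 10 HDAC and selected chromatin regulators, 10 MHC class II genes, 4 blood markers and 4 liver markers.

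IDI1, an isomerase of the isoprenoid pathway, had a 539 bp entry at 2 of its internal starts, with CCAAT matches in both windows, in all 4 lists (places 393, 333, 590 and 557). FDFT1, which makes squalene, had an entry in all 4 lists (places 642, 983, 780 and 789). The promoter table holds no start window of FDFT1, so whether this entry lies at an internal start is unknown. ACACA, the first enzyme of fatty acid synthesis, and SREBF1, a transcription factor of lipid synthesis, had entries in none of the RH30 lists. For lipid genes, then, presence in RH30 ranged from all lists to none.

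CANX and PDIA6, a chaperone and a disulfide isomerase of the endoplasmic reticulum, had entries at internal starts, 17615 and 24744 bp from the nearest gene end, both in all 4 lists (CANX at places 861, 485, 958 and 978, PDIA6 at 1094, 671, 853 and 1036). An entry 7709 bp from SDF2L1, of the same compartment, was in all 4 lists too. Of the cell cycle genes, CDC25C, a phosphatase of mitotic entry, had an entry at an internal start in all 4 lists (places 401, 672, 631 and 597). PCNA, the sliding clamp of DNA replication, had 2 entries, one at an internal start in all lists but sgCCAAT2a and one at the start of PCNA-AS1 in none, and CDC25B had an entry in none.

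NFYC, a subunit of NF-Y itself, had a 468 bp entry at an internal start (chr1:40708869-40709336), 16803 bp from the nearest gene end, that of RIMS3. Its window held 3 CCAAT matches. It was at place 201 of the sgCtrl1 file, 1186 of the sgCtrl2 file, 196 of the sgCCAAT2a file and 531 of the sgCCAAT2b file. MEF2C, a muscle transcription factor, was the gene nearest to an intergenic entry 55908 bp away, in all 4 lists (places 1138, 637, 1333 and 1201), which the authors' deposited tables list as higher in sgCtrl2 than in either edited library. The entry nearest to MYCN, 254755 bp away, was in none.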

How the data were processed

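Peak lists of 6 CUT&RUN libraries were used (RH4 NFYB and NFYC, and 4 RH30 NFYB libraries), with the RH4 consensus list and 3 differential tables; IgG libraries were left out. The unit deposited by the authors is a peak position in bp (other), without a height. Calls for RH30 were made library by library, per the file headers, with HOMER findPeaks at 2-fold over an input directory and 4-fold over local tags. The same headers give the tables as sgCtrl2 peaks with a fold of 2.5 and a p-value of 0.001. The caller and the depth of the RH4 lists, and how the consensus was made, are not given in the sources used here. The submitters' processing notes name HOMER, MACS2, Bowtie2, Trimmomatic, FastQC, deepTools and bedtools with hg38, without versions.

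From these, positions were made 1-based and joined to the RefSeq table (GRCh38.p14, 20037 protein-coding and 39642 other genes) in Python 3.11.15 with pandas 2.3.3 and scipy 1.17.1, and overlap code was checked on simulated intervals against bedtools 2.31.1 (30 of 30 checks matched). Presence needed an overlap of at least 1 bp. Shares carry exact Clopper-Pearson 95% intervals, their differences Newcombe intervals and medians order-statistic intervals. Entries are not replicates, so conditions were compared without p-values. A start window was 250 bases before to 50 after a RefSeq start, matched by symbol; strand came from the same table. CCAAT and ATTGG were counted with overlaps.

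The members, gene lists and rules were chosen with earlier results of these data known. Named entries are the 10 widest; the 10 farthest between and 5 farthest within genes; the 5 within and 5 between genes in all 4 RH30 lists that come first in the sgCtrl2 file; the first 10 in both controls and neither edited list; the first 10 at non-coding ends; genes with 3 or more entries; and members of the gene lists. Sequences come from the RefSeq start windows, since no genome was used. A few further genes at starts (DANCR and OIP5-AS1), and entries of the closing section, were named after their values were seen. Some named entries are not reported here.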

Additional observations from a re-analysis of the deposited data

How the results depend on the processing

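Of 93 recomputed values, 56 stayed within the counting interval of the value reported and 37 moved beyond it. The control differences from gene-end entries kept their sign in every setting run, but with an overlap of 50% their intervals include 0. The distal share of the consensus was 26.9% with windows of 500 bp, 17.8% with 3000 bp, 18.0% in the widest 50% of the consensus entries and 15.4% when ends of every gene in the RefSeq table were used, an alternative chosen after seeing the data. In the same order, the median distance was 6649 bp, 15091 bp and 7040 bp for the first 3 settings, the share at a non-coding end was 28.3% and 36.0% for the 2 window sizes, and the intragenic share was 64.1% and 65.7% for the last 2 settings. Presence in sgCtrl1, sgCtrl2, sgCCAAT2a, sgCCAAT2b and all 4 lists was 81.2%, 78.6%, 76.4%, 77.2% and 65.2% in the widest 50%, 51.4%, 50.9%, 36.4%, 43.3% and 26.0% with an overlap of 50%, and 50.2%, 63.2%, 29.7%, 31.5% and 22.7% when the first 50% of each RH30 file was used. The share of members with both control peaks and neither edited peak was 6.31%, 22.8% and 35.1% under those 3 settings. For sgCCAAT2a and sgCCAAT2b, the share listed by the authors' deposited tables was 28.6% and 23.5% in the widest 50%. With an overlap of 50%, the differences from gene-end entries were -3.73 points in sgCtrl2, 3.17 in sgCCAAT2a and 4.55 (0.408 to 8.74) in sgCCAAT2b. With the first 50% of each file they were -11.8 points in sgCtrl1, -8.38 in sgCCAAT2a and -8.21 (-12.1 to -4.16) in sgCCAAT2b, so the sgCCAAT2b interval excludes 0 in opposite directions under these settings. The cause of these moves was not tested, beyond the fewer entries or peaks that each setting keeps. No paired analysis was possible because each group holds 1 library. The edited lists are shorter than the control lists although their libraries hold more tags, all 4 calls rest on 1 input directory that the headers do not identify, and peak heights were not used, so absence from a list is not absence of binding.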

Other observations

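The combinations of RH30 lists were not all alike between members and gene-end entries. Peaks in sgCtrl1 and sgCCAAT2b, with none in sgCtrl2 or sgCCAAT2a, were seen at 18 of 693 members (2.60%) and at 9 of 2380 gene-end entries (0.378%). The 18 include entries inside MYCL, SSBP3, CTNND1, TMEM132C, FOXN3 and ALDOA (which encodes a glycolytic enzyme), and an intergenic entry 5538 bp from CCNE1, which encodes cyclin E. This combination was singled out after its values were seen, and it crosses control and edited guides. Both edited lists and neither control list held 8 members (1.15%) and 13 gene-end entries (0.546%). The members are at CHD9, CIC, FBXO46, ING5, GNE, TRAF2, LRRC4C and PTMA. GNE had 2 entries of opposite presence: chr9:36257925-36258119 in the edited lists only and chr9:36258455-36258617, at a start window, in the control lists only.

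Some members are pieces of one region. Of the 693, 56 shared an RH4 peak with another entry, and 30 pairs of neighbouring members lay within 1000 bp of each other. In ZSCAN5A, a zinc finger gene, 3 adjacent entries had peaks in 1, 4 and 0 of the RH30 lists. BAHCC1, a chromatin gene, was nearest to 3 members in 4, 4 and 2 lists, and MORN3 was host or nearest to 3 in 2, 4 and 0. The first of the MORN3 entries lay at an end of ORAI1, which the RefSeq table used here labels a transcribed pseudogene. At MIRLET7A1HG, the host of let-7 microRNAs, a 324 bp entry at the start was found only in sgCCAAT2b, while a 174 bp entry beside it was in all 4 lists. Chromosome 19 held the most members, 108 (15.6%), against 13.9% of gene-end entries, a difference of 1.63 points (-1.26 to 4.82) whose interval includes 0.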
